A study of Homo sapiens with 12 samples.

Results

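The measurement described here is the genotype difference in the day 10 response: how the change in gene expression from growing cells (day 0) to senescent cells (day 10 of Ras induction) differed between fibroblasts with a hairpin against the interleukin-1 receptor (shIL1R) and fibroblasts with a scramble hairpin (shScr). For each gene the mean change of log2(normalized count + 1) in shScr cells was subtracted from that in shIL1R cells, so that a negative value means a weaker rise or a stronger fall in shIL1R cells. The values are normalized counts, that is, reads per gene divided by a factor for the library. The difference was computed for 13924 of the 27106 genes in the table, those that reached 10 normalized counts in 2 or more of the 12 libraries. It rests on 8 libraries, 2 in each of 4 groups (shScr and shIL1R cells at day 0 and at day 10). The libraries of day 4 entered only the estimate of the spread between libraries.

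All groups were IMR90 cells, a line of human lung fibroblasts, that carried hTERT, the catalytic subunit of telomerase, and RasERT2, an oncogenic Ras that tamoxifen turns on. All cells received 0.5 ug/ml doxycycline, which induces the hairpin, followed by 200 nM tamoxifen or by ethanol as its control. The labels call shScr cells wild type and shIL1R cells an IL1R knockdown, day 0 cells growing, day 4 cells beginning to senesce and day 10 cells senescent, without naming the Ras gene of the fusion. The design text speaks of 2 different hairpins against the receptor, and the labels number the libraries of each group 1 and 2. Whether these numbers stand for hairpins, cultures or preparations is not given in the sources used here, so p-values reflect how far these libraries differ from each other, which may in part be technical.

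Interleukin-1 alpha and beta bind the receptor IL1R1, which pairs with the accessory protein IL1RAP and recruits MYD88 and the IRAK kinases. The signal releases NF-kB into the nucleus, where it turns on genes of inflammation and also its own brakes, such as NFKBIA, TNFAIP3, IRAK3 and ZC3H12A. Fibroblasts driven into senescence by oncogenic Ras secrete cytokines, chemokines, proteases and growth factors, the senescence-associated secretory phenotype (SASP), in which interleukin-1 alpha is a well-known upstream signal.

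Libraries held 24140324 to 30127727 reads assigned to genes, and 1 read was worth 0.835 to 1.199 normalized counts, so that 3 reads, taken as the floor for a gene at 0, were 2.50 to 3.60 normalized counts. Fibroblast markers were high in all 8 libraries (summed level of 10 genes, 317600 to 489000). The epithelial genes KRT5 and KRT14, the endothelial gene CDH5 and the T cell gene CD3E were at 0 in both libraries of each group. Other members of their lists were present, with summed levels of 71.4 to 271.4 (epithelial), 1574 to 3282 (endothelial) and 2849 to 9076 (leukocyte). The 5 tested endothelial genes had a median change by day 10 of 3.155 in shScr and 3.076 in shIL1R cells. None of the 23 tested markers of the 5 cell classes passed the test of the genotype difference, of which 9 were fibroblast genes. On the first principal component of all tested genes (68.87% of the variance), the 2 shScr day 10 libraries lay at 90.5 and 89.2, shIL1R day 10 replicate 1 at 77.2 and shIL1R day 10 replicate 2 at 46.0, with the day 0 libraries between -74.3 and -68.8. The second shIL1R day 10 library therefore stands apart from the first, and values with either one alone are given for the lists they move most. As these are bulk samples, fewer cells of a kind and less RNA per cell cannot be told apart.

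The day 10 response differed between the genotypes in 336 genes (limma on log2 values, Benjamini-Hochberg adjusted p below 0.05), which is 2.41% of those tested. Of these, 214 (1.54% of all tested) were lower in shIL1R cells and 122 (0.876%) were higher. The unadjusted limma p was below 0.05 in 2677 of the 13924 tested genes. In all 336 the 4 differences between a day 10 and a day 0 library of 1 genotype lay wholly above the 4 of the other. Genes that were not called, such as IL1R1 and CDKN1A, were separated in this way too. The share over all tested genes was not counted, so the separation adds no support to the calls. The 15 genes with the lowest values, among called genes whose mean reached 50 normalized counts in a group, were SAA1, SAA2, CXCL5, C3, CSF3, CXCL8, SERPINB4, CCL20, TTC9, IL6, CXCL1, LCE3D, MMP3, EHF and CXCL3, from −8.25 to −4.20 on the log2 scale. The 15 highest by the same rule were IL21R, PLEKHG4B, ADAMTSL1, ITGA10, NNAT, S1PR1, ID1, MBOAT1, SYTL5, RGS4, MAB21L2, PPARG, PTN, AK5 and PLEKHA4, from 3.29 to 1.71. Differences over 8-fold occurred in 32 of the lower genes and in 1 of the higher genes. The number called depended on single libraries: it was 72 and 42 without shScr day 0 replicate 1 and 2, 154 and 44 without shIL1R day 0 replicate 1 and 2, 303 and 49 without shScr day 10 replicate 1 and 2, and 2123 and 418 without shIL1R day 10 replicate 1 and 2. All 336 genes had the same sign in each of these fits. Because their differences did not overlap between genotypes, the sign could not change, so this is no check on the calls.

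These differences sit on a response that both genotypes largely shared. The change from day 0 to day 10 was called in 8879 genes in shScr cells (63.8%) and in 8396 in shIL1R cells (60.3%), and 6948 genes were called in both in the same direction, 78.3% of the first set and 82.8% of the second. Across all tested genes the 2 changes, which share no library, had Pearson's r of 0.895 and Spearman's rho of 0.879, with a slope of 0.747 for shIL1R on shScr. Genes are not independent replicates, and these values are descriptions. Only 44 genes were called in opposite directions, 24 of them up in shScr cells and down in shIL1R cells. The median genotype difference over all tested genes was 0.01, and its median SE was 0.21.

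**Figure D1:**
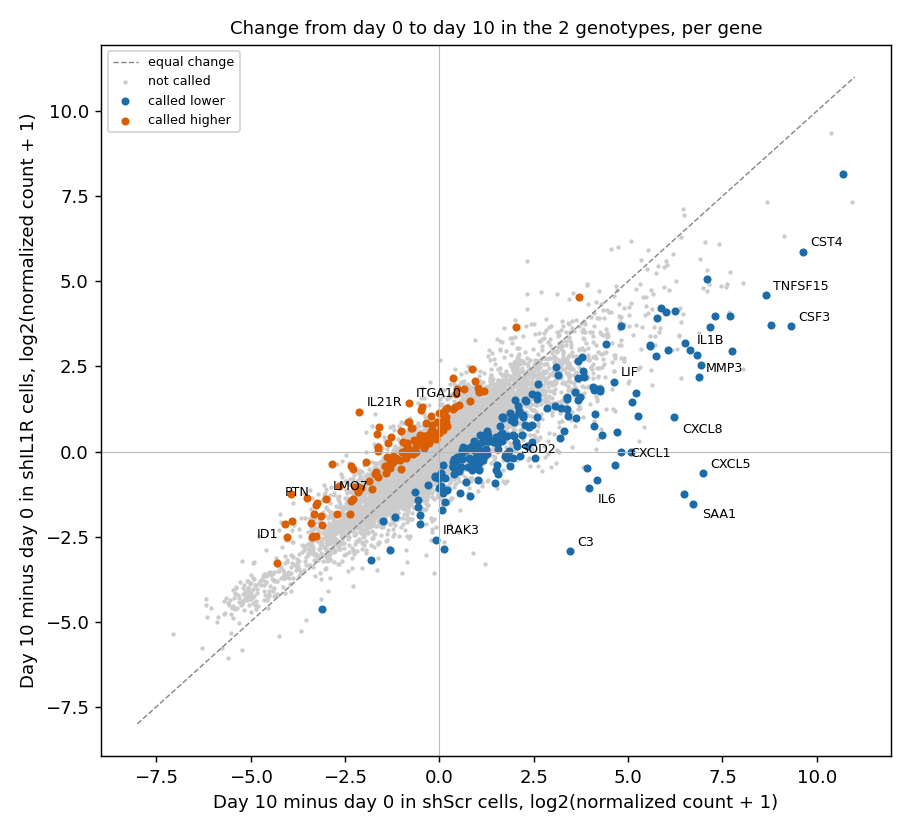
Change of each of 13924 genes from day 0 to day 10 in shScr cells (x axis) and in shIL1R cells (y axis), both as the difference of mean log2(normalized count + 1); the dashed line marks equal change, blue points are the 214 genes called lower and orange points the 122 called higher in shIL1R cells. Grey points scatter around the dashed line, and the slope of shIL1R on shScr change over all tested genes was 0.747, below that of equal change. CXCL5, SAA1 and C3 lie far below the dashed line, with a large rise in shScr cells and no rise in shIL1R cells.

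Most genes called lower rose in shScr cells and rose less, or not at all, in shIL1R cells. Of the 214, 185 rose in shScr cells, and 87 of these also rose in shIL1R cells. Also among the 185, 78 had no called change in shIL1R cells and 20 fell there. Outside the 185, 10 genes fell in both genotypes and 19 fell in shIL1R cells with no called change in shScr cells. The median change of the set was 1.68 in shScr cells and 0.27 in shIL1R cells. Among the 122 genes called higher the picture was reversed: 84 fell in shScr cells, 36 of them also in shIL1R cells, and the median change was −0.84 in shScr cells and 0.17 in shIL1R cells.

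The day 0 libraries contributed to these differences as well. In the genes called lower the median difference between genotypes (shIL1R minus shScr) was 0.33 at day 0, −0.25 at day 4 and −0.89 at day 10, and in those called higher it was −0.22, 0.20 and 0.78. At day 0, 198 of the 214 lower genes were above shScr in shIL1R cells, and in 35 the day 0 difference was larger in size than that at day 10. Because the day 0 difference is subtracted in forming the genotype difference, its sign among called genes is not independent of the call. All 214 were below shScr at day 10, and 121 of the 122 higher genes were above it. C3, TNFRSF11B and HGF, described below, show a day 0 contribution in the single libraries.

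**Figure D2:**
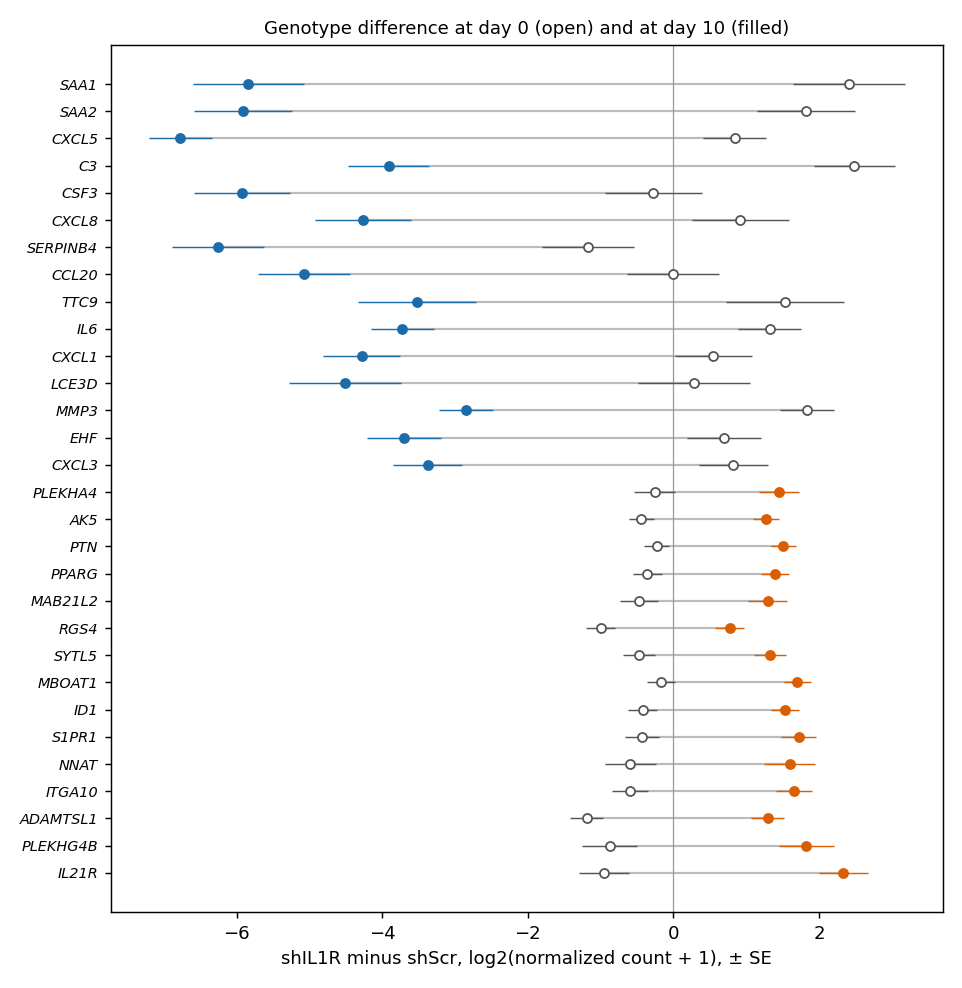
Difference between genotypes (shIL1R minus shScr) in mean log2(normalized count + 1) at day 0 (open points) and at day 10 (filled points), with the SE of the fit over all 12 libraries, for the 15 genes with the lowest and the 15 with the highest genotype difference of the change (the distance from open to filled point). For SAA1, SAA2 and C3 the open point lies above 1.5 and the filled point below −3.5, while for CCL20 the open point is at 0.

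The hairpin's target was low before Ras was induced. IL1R1, which encodes the signalling receptor, stood at 1509 and 1552 normalized counts in the shScr libraries of day 0 and at 1580 and 1240 at day 10. In shIL1R cells it stood at 731 and 378 at day 0 and at 295 and 280 at day 10. Every shIL1R library was below every shScr library. The difference between genotypes was −1.54 at day 0 and −2.28 at day 10 (SE 0.42 each), and the genotype difference of the change was −0.74 ± 0.60 (SE), which did not pass (limma adjusted p = 0.532). HRAS stood at 43040 and 43390 in shScr cells at day 0, 51790 and 50790 at day 10, and in shIL1R cells at 41320 and 41400, then 37520 and 25280. Its genotype difference was −0.67 ± 0.24 and did not pass (limma adjusted p = 0.168). Both day 10 shIL1R libraries were below the other 6 libraries of day 0 and day 10. Without the first of them the difference was −0.96 (limma adjusted p = 0.00771), and without the second it was −0.39 (0.279). Reads of a transgene and of the cell's own gene cannot be told apart here. The part of HRAS level in the results below was not tested.

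The genes of both ligands that activate IL1R1 rose in both genotypes and rose less in shIL1R cells. IL1B, which encodes the secreted form, went from 454 and 632 normalized counts at day 0 to 49460 and 57820 at day 10 in shScr cells, and from 854 and 835 to 12790 and 3527 in shIL1R cells. IL1A, whose product stays mostly on or in the cell, went from 68.0 and 58.4 to 8779 and 9814 in shScr cells, and from 76.3 and 141 to 2675 and 660 in shIL1R cells. The day 10 levels did not overlap between genotypes for either gene, and the second shIL1R library was the lower for both. The genotype difference was −3.65 ± 0.75 for IL1B (limma adjusted p = 0.0325) and −3.51 ± 0.76 for IL1A (0.0401). Of 8 listed family members 5 were tested, 2 were called lower and all 5 were below 0 (median −2.92), the other values being −2.92 for the antagonist IL1RN, −2.58 for IL36B and −2.31 for IL33. The calls lay near the threshold: over all alternatives the adjusted p (limma, edgeR or DESeq2) ran from 0.000614 to 0.143 for IL1B and from 0.000457 to 0.189 for IL1A. No member remained called in 6 of the 8 fits that left out 1 of the libraries of day 0 or day 10, the exceptions being the fits without either shIL1R day 10 library.

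Of 18 tested genes of the receptors and proximal signalling, 1 was called lower and none higher, with a median of −0.16. The unadjusted limma p was below 0.05 in 2 lower and 3 higher genes, against 2677 of 13924 over all tested genes. Without shIL1R day 10 replicate 1 more of them were called in both directions, as were more genes over all tested genes. The gene called with all libraries was IRAK3, an inactive kinase that restrains receptor signalling. In shScr cells IRAK3 stood at 520 and 502 at day 0, at 190 and 190 at day 4 and at 496 and 462 at day 10. In shIL1R cells it stood at 576 and 630 at day 0, at 180 and 148 at day 4 and at 112 and 88.0 at day 10. The dip at day 4 was thus seen in both genotypes and the return by day 10 in shScr cells alone (genotype difference −2.50 ± 0.21, limma adjusted p = 0.000507).

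Among 20 tested NF-kB subunit and feedback genes, 2 were called lower, none higher, and 17 were below 0 (median −0.41). ZC3H12A, an RNase that degrades cytokine messages, rose from 175 and 134 to 1885 and 1435 in shScr cells and from 155 and 181 to 424 and 279 in shIL1R cells (−2.39 ± 0.30, limma adjusted p = 0.0044). NFKBIZ, a nuclear co-activator of IL6 and other late targets, rose from 703 and 652 to 1717 and 2104 in shScr cells, and stood at 904 and 1046, then 917 and 489, in shIL1R cells (−2.03 ± 0.40, limma adjusted p = 0.0283). The subunit gene RELA had a value of −0.01 ± 0.12, and NFKB1 one of −0.42 ± 0.18. TNFAIP3, which encodes the deubiquitinase A20, stood at 2437 and 2968 in shScr cells at day 10 and at 1385 and 334 in shIL1R cells, and with this spread its difference of −1.99 ± 0.96 did not pass (limma adjusted p = 0.291). Without shIL1R day 10 replicate 1 more members of this list were called, as were more genes over all tested genes.

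Chemokines that attract neutrophils showed some of the lowest values in the table. Of 13 listed CXC and CX3C chemokine genes 9 were tested, 5 were called lower and none higher (median −4.20). CXCL5 rose from 19.3 and 22.5 normalized counts to 1972 and 3864 in shScr cells and stood at 38.6 and 37.9, then 39.6 and 14.7, in shIL1R cells. Its genotype difference was −7.62 ± 0.61 (limma adjusted p = 0.000507), the day 10 levels being well apart in every pair of libraries. CXCL8, which encodes interleukin-8, rose from 475 and 666 to 38960 and 44350 in shScr cells and stood at 991 and 1145, then 5272 and 884, in shIL1R cells (−5.19 ± 0.94, limma adjusted p = 0.0197). CXCL1 rose from 38.6 and 43.4 to 1266 and 1097 in shScr cells and stood at 78.1 and 46.5, then 125 and 28.2, in shIL1R cells (−4.83 ± 0.75, limma adjusted p = 0.0123). CXCL3 and CXCL6 were called with −4.20 ± 0.67 and −4.40 ± 0.75. CXCL2 was not (−3.69 ± 1.25, limma adjusted p = 0.145), and its shIL1R day 10 libraries stood at 114 and 7.90. CXCL1, CXCL2 and CXCL3 have closely similar sequences, and reads may have been shared among them. Between 1 and 3 members were called lower without any 1 of the 4 day 0 libraries, and 1 lower and 1 higher without shScr day 10 replicate 2. CXCL6 reached 10 normalized counts in no library other than the 2 of shScr day 10, so its place among the tested genes depends on the group in which it is high.

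The promoters of the 5 called CXC genes carry the same NF-kB type sequence close to the start. The 9 letters GGANTTTCC were searched on both strands of the 250 bases before to 50 bases after each start in the RefSeq promoter table (GRCh38.p14), where 577 of 35116 promoters hold them (1.643%). Among genes with an entry in that table, they were found at 245 of 10336 tested genes, at 11 of 145 called lower and at 0 of 100 called higher. The table covers 67.8% of the genes called lower, too few to compare the shares. The matches of the 5 called CXC genes and of IL6 lie 72 to 91 bases before the start, and the 5 CXC genes lie within 298.4 kb on chromosome 4. The 150 bases before the start are shown for these 6 genes, picked as the called-lower members of the CXC and interleukin lists that hold a match. That all 6 hold it follows from this choice. LIF and CSF3, also called lower in the interleukin list, had no match or no entry. In each sequence the match is in capitals, and the bases read 5′ to 3′ on the strand of the gene. The place is not particular to such genes: CYB561A3, called lower with a value of −0.57, has a match 70 bases before a start. A match is a description of the sequence, not evidence of binding.
CXCL5, chr4:73998678-73998827, minus strand: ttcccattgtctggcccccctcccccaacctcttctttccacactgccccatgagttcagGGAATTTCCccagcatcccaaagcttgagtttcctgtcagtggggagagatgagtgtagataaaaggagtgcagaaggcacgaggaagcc
CXCL6, chr4:73836528-73836677, plus strand: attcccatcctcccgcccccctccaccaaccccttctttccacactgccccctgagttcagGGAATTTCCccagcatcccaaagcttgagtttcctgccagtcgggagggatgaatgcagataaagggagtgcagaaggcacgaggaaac
CXCL1, chr4:73869243-73869392, plus strand: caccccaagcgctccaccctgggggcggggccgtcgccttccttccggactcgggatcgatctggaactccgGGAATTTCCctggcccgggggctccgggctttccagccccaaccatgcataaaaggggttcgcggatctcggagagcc
CXCL3, chr4:74038690-74038839, minus strand: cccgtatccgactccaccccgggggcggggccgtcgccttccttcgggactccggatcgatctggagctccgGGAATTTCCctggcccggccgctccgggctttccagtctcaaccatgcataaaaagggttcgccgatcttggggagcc
CXCL8, chr4:73740419-73740568, plus strand: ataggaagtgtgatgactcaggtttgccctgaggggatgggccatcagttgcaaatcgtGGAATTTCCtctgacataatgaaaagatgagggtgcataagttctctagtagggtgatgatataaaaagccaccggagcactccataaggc
IL6, chr7:22727050-22727199, plus strand: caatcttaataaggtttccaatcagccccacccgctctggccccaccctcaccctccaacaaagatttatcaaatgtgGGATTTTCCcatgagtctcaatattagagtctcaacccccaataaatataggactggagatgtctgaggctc

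Of 11 listed CC chemokine genes 5 were tested and 2 were called lower. CCL20, which attracts immature dendritic cells and Th17 cells, was at 0 in all 4 libraries of day 0, at 345 and 569 at day 10 in shScr cells and at 25.2 and 5.64 in shIL1R cells. Against a floor of 3 reads per library its mean was at least 174-fold higher at day 10 than at day 0 in shScr cells and at least 5.84-fold higher in shIL1R cells. The limma genotype difference was −5.07 ± 0.89 (adjusted p = 0.0179), a value that depends on the pseudocount, and edgeR's quasi-likelihood test on recovered reads did not call it (adjusted p = 1). CCL28 had a difference of −1.70 ± 0.36 (limma adjusted p = 0.0355). CCL3, a macrophage chemokine, rose from 0.919 and 7.51 to 5949 and 10610 in shScr cells and from 2.69 and 1.72 to 1962 and 132 in shIL1R cells, and its value of −3.61 did not pass (limma adjusted p = 0.224).

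Of 14 listed interleukin and colony-stimulating factor genes 13 were tested, 3 were called lower, none higher, and 12 were below 0 (median −2). IL6 rose from 125 and 110 to 1900 and 1801 normalized counts in shScr cells and fell from 259 and 337 to 199 and 97.1 in shIL1R cells. Its genotype difference was −5.05 ± 0.61 (limma adjusted p = 0.00333), and its shIL1R change of −1.08 was called on its own (limma adjusted p = 0.0486). LIF, an IL-6 family cytokine, rose from 516 and 432 to 10840 and 12570 in shScr cells and from 687 and 669 to 2908 and 2733 in shIL1R cells (−2.57 ± 0.23, limma adjusted p = 0.000604). The replicates of LIF lay close together at day 10 in both genotypes, unlike those of IL6.

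CSF3, the granulocyte colony-stimulating factor, stood at 1.84 and 1.67 at day 0 and at 1790 and 1735 at day 10 in shScr cells, and at 0.898 and 1.72, then 74.3 and 10.2, in shIL1R cells. Its difference of −5.65 ± 0.94 was called (limma adjusted p = 0.0156) but not by edgeR's quasi-likelihood test (adjusted p = 0.321). CSF2 went from 33.1 and 52.6 to 8296 and 9083 in shScr cells and from 55.7 and 65.4 to 2679 and 413 in shIL1R cells. With the spread between the last 2 libraries its difference of −3.56 ± 0.99 did not pass (limma adjusted p = 0.086).

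Of 15 tested TNF superfamily genes 2 were called lower and none higher (median −0.44). TNFSF15, a ligand made by endothelial and stromal cells, rose from 40.4 and 37.6 to 14230 and 17970 in shScr cells and from 79.9 and 88.7 to 3191 and 1333 in shIL1R cells (−4.05 ± 0.45, limma adjusted p = 0.00204). TNFRSF11B, the decoy receptor osteoprotegerin, differed in another way. It stood at 2529 and 2104, then 2616 and 2347, in shScr cells and fell from 4190 and 5312 to 1874 and 2173 in shIL1R cells. The difference between genotypes was 1.03 at day 0 and −0.30 at day 10, so that most of its genotype difference of −1.33 ± 0.19 (limma adjusted p = 0.00847) lay in the growing cells.

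Acute phase and complement genes held the lowest values of all tested genes. Of 18 listed genes 11 were tested, 4 were called lower and none higher (median −0.57). C3, the central complement protein, went from 343 and 260 normalized counts at day 0 to 82.8 and 62.5 at day 4 and 3168 and 3454 at day 10 in shScr cells. In shIL1R cells it went from 1431 and 1963 to 92.8 and 85.3 and then to 516 and 92.6. C3 was thus higher in shIL1R cells before Ras, alike at day 4 and lower at day 10, with changes from day 0 to day 10 of 3.47 in shScr and −2.93 in shIL1R cells. Its genotype difference was −6.40 ± 0.79 (limma adjusted p = 0.00353). C1QTNF1, a secreted protein of the C1q and TNF family, rose from 648 and 563 to 2459 and 2008 in shScr cells and stood at 963 and 1133, then 821 and 727, in shIL1R cells (−2.31 ± 0.26, limma adjusted p = 0.00204).

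SAA1 and SAA2, the acute phase serum amyloid A genes, were at 0 in both shScr libraries of day 0 and rose to 73.2 and 149 (SAA1) and to 69.6 and 111 (SAA2) at day 10. In shIL1R cells SAA1 stood at 5.39 and 3.44 at day 0 and at 2.40 and 0 at day 10, and SAA2 at 1.80 and 3.44, then 1.199 and 0. Against a floor of 3 reads per library the rise in shScr cells was at least 42.2-fold for SAA1 and at least 34.4-fold for SAA2. The fitted differences of −8.25 ± 1.08 and −7.73 ± 0.95 (limma adjusted p = 0.00529 and 0.00353) depend on the pseudocount, and with a pseudocount of 5 they were −5.08 and −4.67. The SAA genes are nearly identical and reads may be split between them. Both reached 10 normalized counts only in the shScr day 10 libraries, so they could not enter the test without differing, as holds for 8 of the 214 lower genes.

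**Figure D3:**
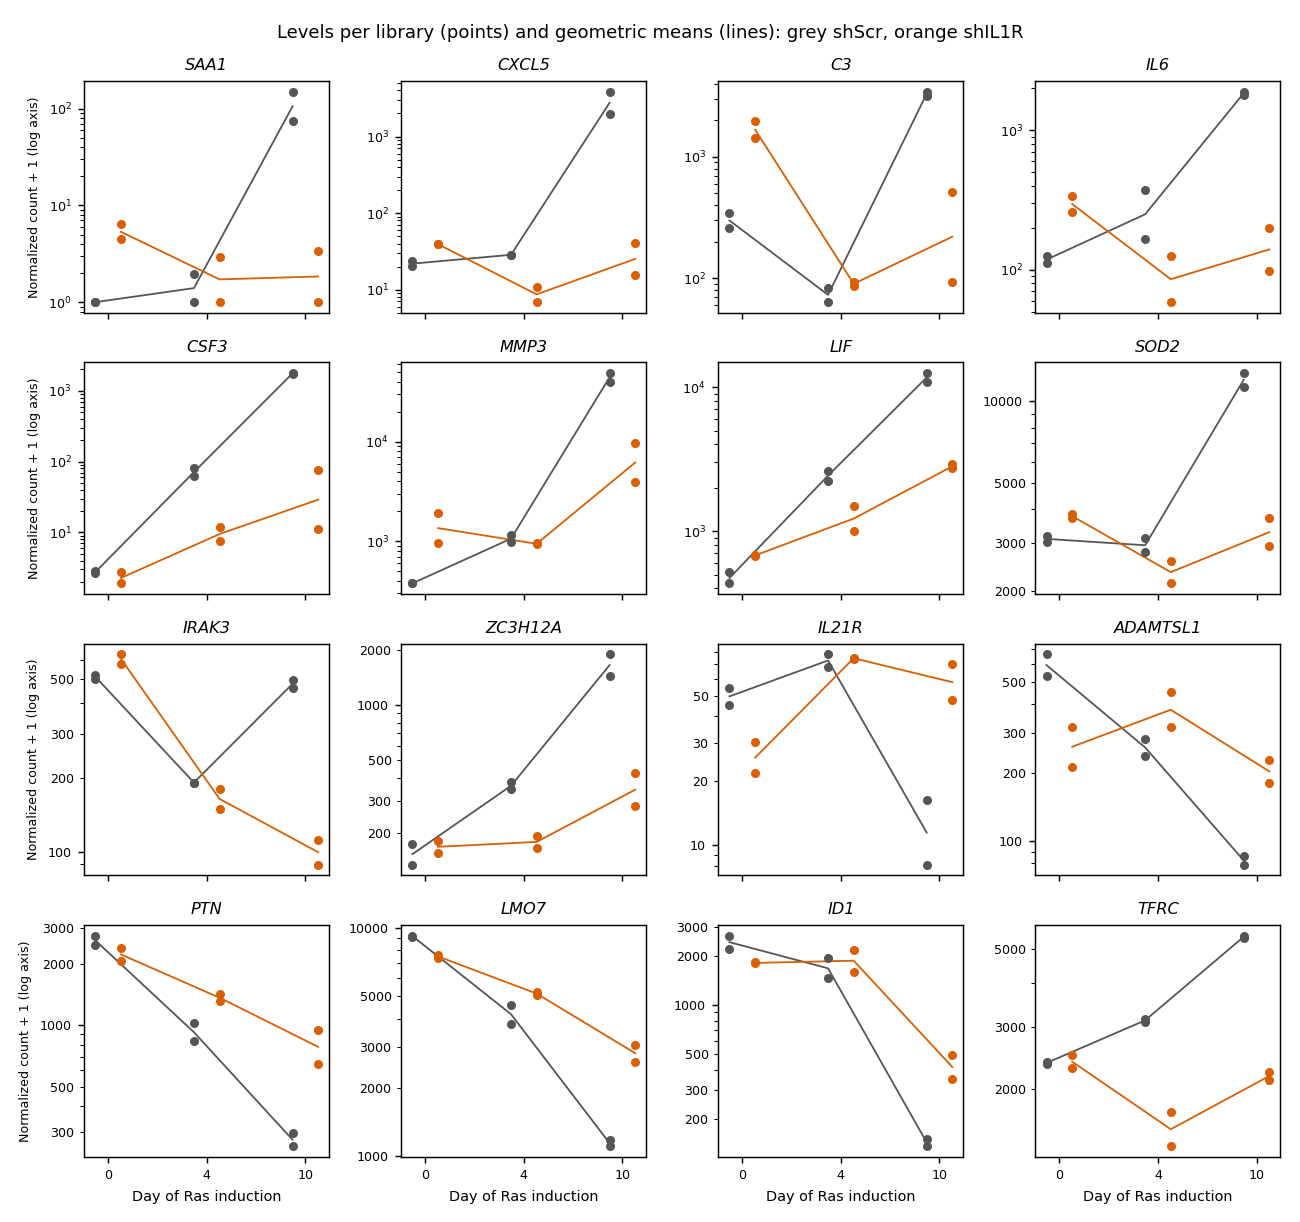
Normalized count + 1 (log axis, its range set for each gene) of 16 genes against day, drawn at equal spacing, with 1 point per library and lines through the geometric means; shScr is grey and shIL1R is orange. CXCL5, IL6, C3 and SAA1 climb between day 4 and day 10 in shScr cells and stay low in shIL1R cells, TFRC and SOD2 rise in shScr cells alone, and IL21R, ADAMTSL1, PTN, LMO7 and ID1 end higher in shIL1R than in shScr cells.

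All 15 tested genes of a list of adhesion, survival and lipid-mediator targets of NF-kB had values below 0 (median −1.02), and 3 were called. SOD2, the mitochondrial superoxide dismutase, stood at 3185 and 3040 at day 0 and at 11320 and 12730 at day 10 in shScr cells, and at 3709 and 3840, then 3705 and 2931, in shIL1R cells (−2.14 ± 0.18, limma adjusted p = 0.000507). PTGS2, the inducible cyclooxygenase, rose from 211 and 276 to 2003 and 2443 in shScr cells and stood at 210 and 367, then 561 and 243, in shIL1R cells (−2.78 ± 0.53, limma adjusted p = 0.0257). ICAM1, the leukocyte adhesion molecule, rose from 628 and 486 to 26920 and 32520 in shScr cells and from 717 and 883 to 10410 and 2921 in shIL1R cells. Its difference of −2.95 ± 0.67 lay close to the threshold (limma adjusted p = 0.0474). SOD2 and PTGS2 therefore did not rise in shIL1R cells by the test, whereas ICAM1 did.

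Called matrix-degrading proteases rose less in shIL1R cells, and some of them stood higher there at day 0. Of 16 tested metalloproteinase and inhibitor genes 4 were called lower and none higher (median −0.49). MMP3, stromelysin 1, rose from 376 and 379 to 40040 and 48910 in shScr cells and from 957 and 1913 to 9779 and 3886 in shIL1R cells (−4.68 ± 0.52, limma adjusted p = 0.00204). MMP10, stromelysin 2, rose from 23.9 and 19.2 to 333 and 447 in shScr cells and stood at 20.7 and 46.5, then 55.2 and 50.8, in shIL1R cells (−3.36 ± 0.45, limma adjusted p = 0.00618). MMP1, interstitial collagenase, was one of the most abundant messages in both genotypes: it rose from 11080 and 13490 to 259500 and 266800 in shScr cells and from 16550 and 24110 to 191900 and 168800 in shIL1R cells. Its difference was small by comparison (−1.26 ± 0.25, limma adjusted p = 0.0284). MMP12, macrophage elastase, had a value of −2.47 ± 0.53. The difference between genotypes was 1.51 at day 0 and −0.96 at day 10 for MMP12, and 0.71 and −0.55 for MMP1. For these genes the larger part thus lay in the growing cells. For MMP3 (1.84 and −2.84) and MMP10 (0.52 and −2.84) it lay at day 10. The rise of MMP1 and MMP3 thus remained in shIL1R cells, and that of MMP10 did not pass there.

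In the plasminogen and serpin list 1 of 11 tested genes was called lower and none higher. SERPINB4, a protease inhibitor of squamous epithelia, was at 0.919 and 1.67 at day 0 and at 49.6 and 114 at day 10 in shScr cells and at 0 in all shIL1R libraries, at least 23.5-fold lower than shScr at day 10 against a floor of 3 reads per library. Its fitted difference of −5.08 ± 0.89 depends on the pseudocount, and edgeR's quasi-likelihood test on recovered reads gave an adjusted p of 1. SERPINB4 reached 10 normalized counts only in the shScr day 10 libraries, so it too entered the test through the group where it is high. It is a close copy of SERPINB3, and reads may be split between the pair. SERPINB2, another inhibitor of the family, had a value of −2.19 ± 0.54 (limma adjusted p = 0.063).

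Growth factors and their binding proteins divided between both directions. Of 24 tested genes 7 were called lower and 2 higher (median −0.50). NRG1, a ligand of ERBB receptors, rose from 308 and 298 to 4418 and 5870 in shScr cells and from 374 and 372 to 1498 and 1316 in shIL1R cells (−2.16 ± 0.19, limma adjusted p = 0.000519). EREG, a ligand of the EGF receptor, had a value of −1.80 ± 0.40. IGFBP3, which binds insulin-like growth factors, went from 7230 and 4335 to 7271 and 9235 in shScr cells and from 9701 and 12290 to 4875 and 4454 in shIL1R cells (−1.78 ± 0.30, limma adjusted p = 0.016). The other lower genes were FGF2, HBEGF, IGFBP4 and HGF, from −1.27 to −0.67, which were named after their values were seen.

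In the other direction IGFBP6, an inhibitor of IGF-II, stood at 2753 and 2747, then 2545 and 2306, in shScr cells and rose from 2501 and 2505 to 4088 and 4588 in shIL1R cells (0.97 ± 0.12, limma adjusted p = 0.0032). FGF1 fell from 956 and 925 to 93.2 and 84.1 in shScr cells and from 974 and 1095 to 195 and 294 in shIL1R cells (1.29 ± 0.26, limma adjusted p = 0.0313). HGF, the hepatocyte growth factor, is an example of a contribution from growing cells: it stood at 6186 and 5503, then 5978 and 6051, in shScr cells and fell from 8137 and 8343 to 5144 and 5560 in shIL1R cells.

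Of 18 tested TGF-beta, BMP and activin genes 1 was called lower and 1 higher, and 16 did not pass (median −0.08). BMP2 rose from 856 and 763 to 10540 and 10210 in shScr cells and from 1574 and 1977 to 8110 and 7784 in shIL1R cells (−1.51 ± 0.26, limma adjusted p = 0.0164). The difference between genotypes in BMP2 was 1.13 at day 0 and −0.38 at day 10, so that most of it lay in the growing cells. ID1, a BMP-responsive inhibitor of differentiation, fell from 2202 and 2659 to 150 and 135 in shScr cells and from 1818 and 1791 to 350 and 490 in shIL1R cells (1.96 ± 0.28, limma adjusted p = 0.00782). ID3 and ID2, of the same family, had values of 1.22 ± 0.30 and 1.30 ± 0.35 and did not pass (limma adjusted p = 0.0607 and 0.0771). INHBA, the activin A subunit, stood at day 10 at 31810 and 43210 in shScr cells and at 14160 and 5645 in shIL1R cells, and its value of −2.26 ± 0.53 missed the threshold (limma adjusted p = 0.0531).

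Lower values extended beyond the secretome. TFRC, the transferrin receptor, stood at 2392 and 2359 at day 0 and at 5384 and 5473 at day 10 in shScr cells, and at 2294 and 2501, then 2127 and 2237, in shIL1R cells (−1.33 ± 0.14, limma adjusted p = 0.00193). SLC11A2, the iron transporter DMT1, stood at 925 and 846, then 2488 and 2737, in shScr cells and at 1081 and 1124, then 1216 and 1116, in shIL1R cells (−1.48 ± 0.17, limma adjusted p = 0.00225). ACO1, which doubles as an iron regulatory protein, had a value of −0.62 ± 0.12, and SLC25A37, the mitochondrial iron importer, one of −0.999 ± 0.15, both called. These 4 genes of iron handling were put together after their values were seen, and no list of such genes was tested. In all 4 the 2 shIL1R day 10 libraries lay close together and below both shScr libraries.

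EHF, an epithelial ETS factor, rose from 24.8 and 46.7 to 4125 and 4494 in shScr cells and from 47.6 and 65.4 to 652 and 168 in shIL1R cells (−4.39 ± 0.72, limma adjusted p = 0.0147). Of the 7 epithelial markers 2 were tested, KRT19 with a value of 1.27 and CLDN4 with one of 0.37, neither called, and the summed level of the list at day 10 was 233.9 to 271.4 in shScr and 178.3 to 251.8 in shIL1R libraries. TTC9 (−5.05 ± 1.15) and LCE3D (−4.79 ± 1.09) were called near the threshold (limma adjusted p = 0.0475 for each), and TTC9 reached 10 normalized counts only in the shScr day 10 libraries, so its call and its place among the lowest values rest on entry through that group. CTSS, a lysosomal protease made by macrophages and by activated stromal cells, rose from 198 and 221 to 3813 and 3540 in shScr cells and from 341 and 341 to 1149 and 470 in shIL1R cells (−3.02 ± 0.56, limma adjusted p = 0.0218). Of the 7 leukocyte markers 2 were tested, CD68 with a value of −0.14 and LAPTM5 with one of −3.28 ± 1.29, the latter at day 10 at 142 and 120 in shScr libraries and at 37.2 and 6.77 in shIL1R libraries. Summed, the leukocyte markers ran from 7434 to 9076 in shScr and from 5792 to 8517 in shIL1R libraries at day 10. Their part in the lower values was not tested.

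Many genes called higher in shIL1R cells fell by day 10 in both genotypes and fell less in shIL1R cells. LMO7, an actin-associated scaffold protein, fell from 9122 and 9230 to 1108 and 1175 in shScr cells and from 7371 and 7590 to 2597 and 3068 in shIL1R cells (1.60 ± 0.15, limma adjusted p = 0.000604). PTN, the heparin-binding growth factor pleiotrophin, fell from 2746 and 2458 to 294 and 254 in shScr cells and from 2384 and 2061 to 645 and 945 in shIL1R cells (1.74 ± 0.24, limma adjusted p = 0.00703). S1PR1, a receptor for sphingosine 1-phosphate, fell from 497 and 618 to 49.6 and 45.6 in shScr cells and from 377 and 448 to 127 and 199 in shIL1R cells (2.15 ± 0.33, limma adjusted p = 0.0123). Each of these fell in both genotypes, with day 10 levels that did not overlap.

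Others kept or raised their level. IL21R, the receptor of interleukin-21, stood at 53.3 and 44.2, then 7.08 and 15.2, in shScr cells and rose from 20.7 and 29.3 to 46.8 and 68.8 in shIL1R cells, the highest of all differences (3.29 ± 0.48, limma adjusted p = 0.00944). ITGA10, a collagen-binding integrin, stood at 241 and 295, then 191 and 120, in shScr cells and rose from 183 and 170 to 436 and 526 in shIL1R cells (2.25 ± 0.35, limma adjusted p = 0.0127). PPARG, the fat-cell nuclear receptor, fell from 756 and 800 to 308 and 206 in shScr cells and stood at 658 and 558, then 627 and 702, in shIL1R cells (1.75 ± 0.28, limma adjusted p = 0.0134). ADAMTSL1, a secreted matrix protein, fell from 530 and 661 to 77.9 and 85.1 in shScr cells and stood at 316 and 212, then 180 and 226, in shIL1R cells (2.49 ± 0.32, limma adjusted p = 0.00503). For ADAMTSL1 the genotypes differed at day 0 in the opposite direction (−1.19) from day 10 (1.30).

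Calls in some families rested on few libraries, and 33 genes were called in all 12 fits that each left out 1 library. Of these 25 were lower: SAA1, SAA2, CXCL5, C3, IL6, MMP3, TNFSF15, CST4, MMP10, LIF, IRAK3, ZC3H12A, C1QTNF1, ADAM12, APLN, TMEM132A, NRG1, SOD2, KCNJ15, AMPD3, DPP4, HECTD2, SLC11A2, TFRC and SLC16A6. The other 8 were higher: IL21R, ADAMTSL1, PTN, CDH6, LMO7, HOPX, LYPD1 and IGFBP6. Those not named above were chosen in this way, after the data were seen. SAA1 and SAA2 entered the test only through the shScr day 10 libraries, where they are high, so their staying called adds no support. DPP4, a cell surface peptidase, rose from 456 and 473 to 6205 and 7131 in shScr cells and from 876 and 1158 to 4622 and 4479 in shIL1R cells, with a difference between genotypes of 1.12 at day 0 and −0.55 at day 10. CST4, a salivary cystatin, rose from 2.76 and 1.67 to 2452 and 2617 in shScr cells and from 14.4 and 12.9 to 954 and 757 in shIL1R cells, and shares close sequence with CST1. HOPX, a homeodomain cofactor, fell from 406 and 406 to 145 and 174 in shScr cells and stood at 361 and 356, then 444 and 406, in shIL1R cells.

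**Figure D4:**
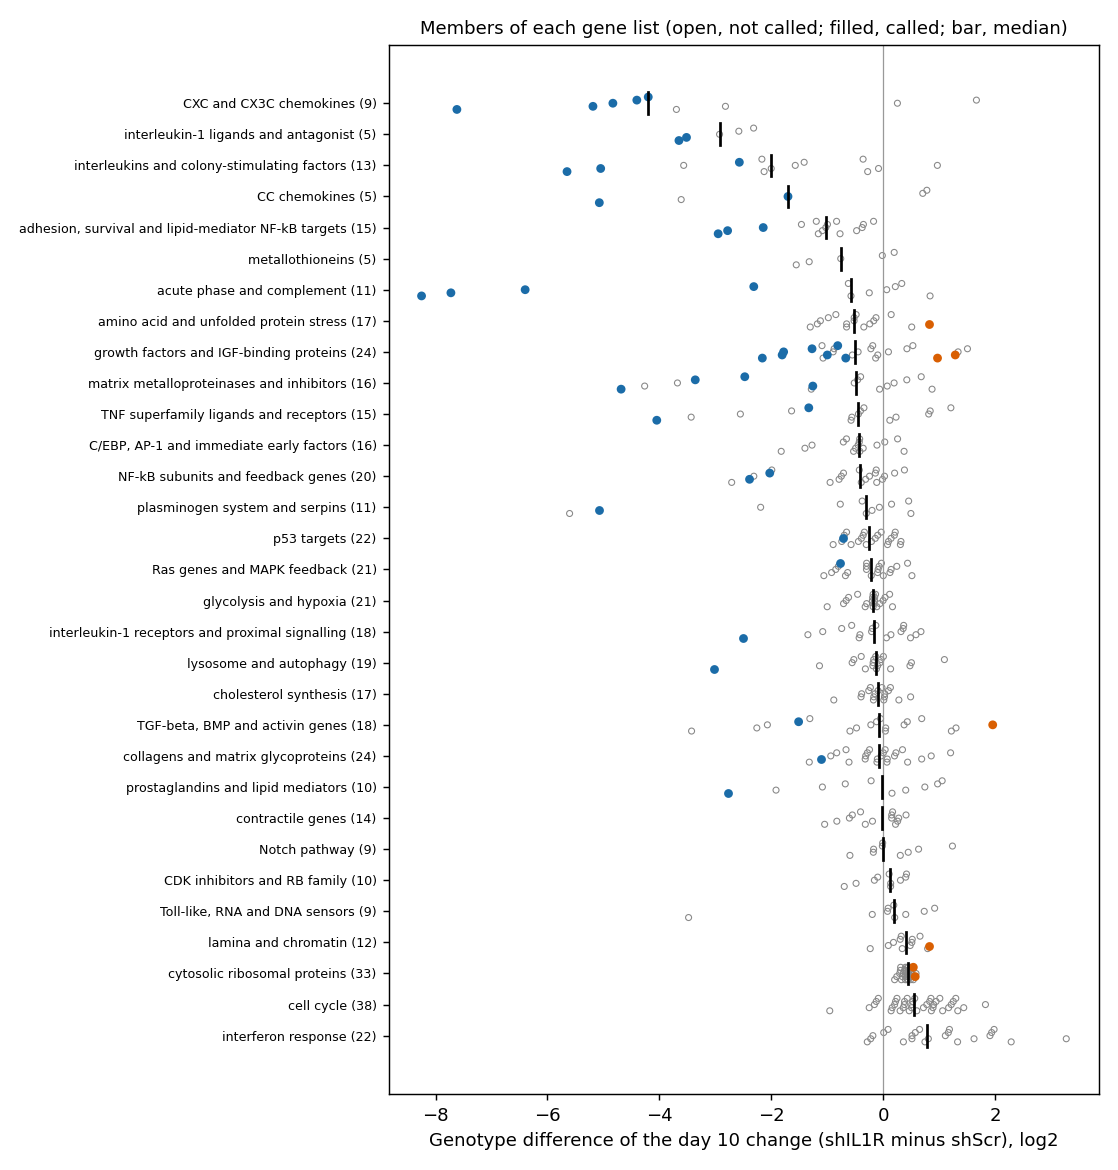
Genotype difference of the day 10 change (x axis, log2, shIL1R minus shScr) for every tested member of 31 gene lists, with the number tested in brackets; open points were not called, blue and orange points were called lower and higher, and the black bar is the list's median. Medians of the chemokine, interleukin and interleukin-1 lists lie below −1.5, and those of the ribosomal, cell cycle, interferon and lamina lists lie above 0.4 with few or no calls; the median of all tested genes is 0.01.

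With all libraries, lists outside the secretome held few called genes. Over all tested genes the shares were 1.54% lower and 0.876% higher, and no list was tested against them. Called lower were 1 of 22 p53 targets (MDM2, −0.72 ± 0.16), 1 of 21 Ras and MAPK feedback genes (DUSP6, −0.76 ± 0.17) and 1 of 24 collagens and matrix glycoproteins (COL8A1, −1.11 ± 0.19). Called higher were 1 of 12 lamina and chromatin genes (HMGA1, 0.83 ± 0.15) and 1 of 17 stress genes (NQO1, 0.83 ± 0.16). No member passed in the Notch, C/EBP and AP-1, Toll-like and nucleic acid sensor, CDK inhibitor, contractile, cholesterol synthesis, glycolysis and metallothionein lists. There limma gave unadjusted p below 0.05 for 0 to 5 members of a list, against 2677 of 13924 over all tested genes. These counts moved with shIL1R day 10 replicate 1. Without it more members of several of these lists, and some fibroblast markers, were called. Far more genes were called over all tested genes in that fit too, and no list was set against that share. With replicate 2 left out instead, few p53 targets or C/EBP and AP-1 genes were called. The p21 gene CDKN1A, which arrests the cell cycle, rose from 10020 and 8866 to 69200 and 79730 in shScr cells and from 10400 and 9905 to 65270 and 37470 in shIL1R cells (−0.69 ± 0.34, limma adjusted p = 0.293).

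Cell cycle genes were far lower at day 10 than at day 0 in both genotypes. The median change of the 38 listed genes, all tested, was −4.70 in shScr and −3.91 in shIL1R cells, with a median genotype difference of 0.55. None was called by limma. At an unadjusted limma p below 0.05, 12 were higher and 1 lower, against 2677 of 13924 in either direction over all tested genes. The median level of the 38 genes at day 10 was 145 and 149 normalized counts in the shScr libraries, 135 in shIL1R replicate 1 and 285 in shIL1R replicate 2. The second library was above the first in 34 of 38 genes. Without replicate 1, 29 members were called higher and 1 lower (median 1.2), and without replicate 2, 1 was called higher (median 0.15); edgeR's quasi-likelihood test on recovered reads called 1. CEP55, a protein of cell division, came nearest the threshold among all libraries (at day 10 53.1 and 52.7 in shScr libraries, 93.5 and 189 in shIL1R libraries, 1.44 ± 0.34, limma adjusted p = 0.0533), and MKI67 showed the split plainly, at 216 and 257 in shScr and at 229 and 849 in shIL1R cells.

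**Figure D5:**
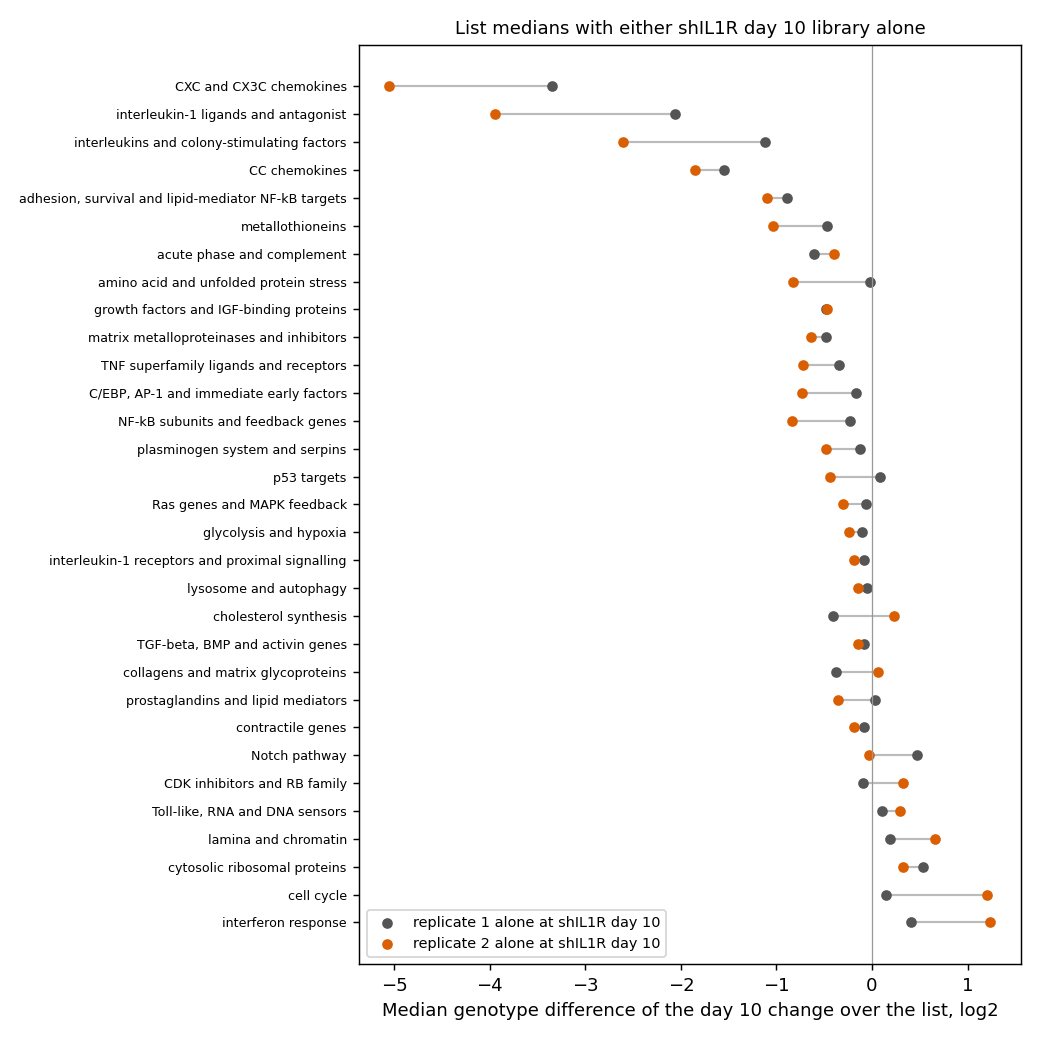
Median genotype difference of the day 10 change (x axis, log2) over the tested members of 31 lists when replicate 1 (grey) or replicate 2 (orange) is the only shIL1R library at day 10. The chemokine and interleukin medians stay below −1 with either library, while the cell cycle median moves from 0.15 with replicate 1 alone to 1.2 with replicate 2 alone.

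The same library bears on how far the called genes, inflammatory or not, lay from shScr. In 157 of the 214 lower genes shIL1R replicate 2 was below replicate 1 at day 10, and in 83 of the 122 higher genes it was above it. The shares over all tested genes were not counted. Replicate 2 also lay nearer the day 0 libraries on the first principal component (46.0 against 77.2). The CXC and CX3C list had a median of −3.35 with replicate 1 alone and −5.05 with replicate 2 alone, with 5 and 7 members called, and the interleukin-1 list one of −2.06 and −3.95, with 2 and 4 called. Without replicate 1, 7 interleukin and colony-stimulating factor genes were called lower and 1 higher, 6 and 1 in the TNF list, 5 and 1 in the plasminogen and serpin list, and 5 and 3 in the TGF-beta list. The number of genes called in all was 418 without replicate 2 and 2123 without replicate 1, and 276 and all 336 of the genes remained called in these fits. Replicate 2 thus had both higher cell cycle levels and lower inflammatory levels than replicate 1. Whether it carried the other hairpin is not given, and the part of the hairpin in this was not tested. IL1R1 was alike in both at day 10 (295 and 280). At the earlier times it was lower in shIL1R replicate 2 than in replicate 1, with 378 against 731 at day 0 and 86.4 against 272 at day 4. The part of IL1R1 level in the split was not tested.

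Genes of cytosolic ribosomal proteins had small values in 1 direction. All 33 tested had values above 0 (0.21 to 0.59, median 0.44). Of these 30 had an unadjusted limma p below 0.05, against 2677 of 13924 over all tested genes. The 2 called were RPS16 (0.57 ± 0.12) and RPL10 (0.54 ± 0.11, limma adjusted p = 0.0373 and 0.0363). The median level went from 12850 and 13120 to 19090 and 17140 normalized counts in shScr libraries and from 11860 and 11270 to 23530 and 19490 in shIL1R libraries. In 27 of 33 genes both shIL1R libraries were above both shScr libraries at day 10, and in 1 gene shIL1R replicate 2 was above replicate 1. The genes thus moved together between libraries and are not independent observations. The share of all tested genes with such separation was not counted. The median was 0.44 after TMM rescaling and 0.45 after quantile normalization, with 2 and 5 members called. No member was called without any 1 of the 4 day 0 libraries or without shScr day 10 replicate 2, and 9 and 23 were called without shIL1R day 10 replicate 1 and 2.

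Interferon-response genes had a median of 0.78 in 22 tested genes, none of which was called by limma or by edgeR. An unadjusted limma p below 0.05 was found in 5 of them, near the share over all tested genes (2677 of 13924). OAS1, a sensor of double-stranded RNA, shows the spread: at day 10 it stood at 23.6 and 0 in shScr libraries and at 22.8 and 95.9 in shIL1R libraries, and its value was 3.28 ± 1.76. The median level of the list was 131 and 41.5 in the shScr libraries of day 10 and 133 and 248.8 in the shIL1R libraries. These medians did not overlap, but the lowest shIL1R and the highest shScr value lay close together. Without shScr day 10 replicate 2 the list's median was 0.34, and without shScr day 10 replicate 1 it was 1.11, with 2 members called. Without shIL1R day 10 replicate 1 it was 1.24, with 5 called, and without replicate 2 it was 0.41, with none.

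The libraries of day 4 give the same genes at an earlier time. They were compared with the same day 0 libraries as those of day 10, so the values at both times are set side by side and are not independent. TNFSF15 stood at 3185 and 2429 normalized counts at day 4 in shScr cells and at 832 and 627 in shIL1R cells, and its genotype difference was −3.04 ± 0.45 at day 4 and −4.05 ± 0.45 at day 10. TFRC stood at 3178 and 3103 in shScr cells and at 1719 and 1378 in shIL1R cells at day 4, with a genotype difference of −1.04 ± 0.14, against −1.33 ± 0.14 at day 10. For both genes the genotypes were thus already apart at day 4. SOD2 stood at 3122 and 2783 in shScr and at 2584 and 2131 in shIL1R cells at day 4 (−0.61 ± 0.18), and CXCL5 at 27.6 and 27.4, and at 5.86 and 9.97 (−2.56 ± 0.61). For SOD2 and CXCL5 the shScr level at day 4 was close to that of day 0, and the rise came between day 4 and day 10. MMP3 stood at 1146 and 980 in shScr and at 929 and 954 in shIL1R cells at day 4, levels that lay close together, although its genotype difference at that time was −2.01 ± 0.52 because its day 0 level was higher in shIL1R cells.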

How the data were processed

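RNA was sequenced from 12 libraries of IMR90 fibroblasts, with a strand-specific TruSeq kit per the labels' protocols. The submitters' processing notes name TopHat, HTSeq, DESeq2 and the hg19 build, with no versions. The annotation and strand setting are not given in the sources used here. The deposited signal values are gene counts that the authors divided by a size factor for each library, per the submitters' processing notes; every value came out as whole reads (100%, within 0.001).

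The fit was run with limma 3.58.1 (R 4.3.3, trended prior) on log2(normalized count + 1), as the planned test for values that are not raw counts. It had 6 group means over the 12 libraries (6 residual degrees of freedom, 4.98 from the prior), and the day 10 interaction (shIL1R change minus shScr change) was taken as a contrast. Because of the pseudocount, fold changes of low genes are understated. P-values were Benjamini-Hochberg adjusted over 13924 genes, and a gene is called at an adjusted p below 0.05. Errors are the SE of this fit. Libraries carry 24140324 to 30127727 reads, and floors cover counting error only.

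Named genes were IL1R1, HRAS, the 15 lowest and 15 highest called genes with a group mean of at least 50 and no overlap of the 4 differences per genotype, and from each of 36 lists up to 4 called members of largest difference, or 2 members where none was called. Other genes, such as TNFAIP3, CXCL2, CSF2, INHBA, HGF and MKI67, were added after their values were seen. The members and lists were chosen with earlier results of these data known. Lists are described by counts and medians only. Alternatives included other pseudocounts, filters and scalings, replicate blocks, count models on the recovered reads (edgeR 4.0.16, DESeq2 1.42.0), and leaving out each library. The code was tested on simulated data. Same-numbered libraries deviated together in only some pairs of groups, so the numbers were not used as pairs. Genes with near-identical copies (SAA1 and SAA2, SERPINB3 and SERPINB4, CST1 and CST4, LCE3D, CXCL1 to CXCL3) are uncertain. Figures were drawn with Python 3.11.15 and matplotlib 3.10.9.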

Additional observations from a re-analysis of the deposited data

Results flagged for a closer look

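Among the named genes, 9 were called as changed in opposite directions from day 0 to day 10 in the 2 genotypes, and the difference itself was tested by the interaction term of the limma fit. Changes and differences are on the log2 scale.

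C3 rose by 3.47 in shScr cells and fell by 2.93 in shIL1R cells (difference −6.40 ± 0.79 SE). IL6 rose by 3.97 and fell by 1.08 (−5.05 ± 0.61). APLN, the ligand apelin, stood at 751 and 573, then 1800 and 2073 normalized counts in shScr cells and at 1158 and 1758, then 936 and 861 in shIL1R cells (−2.22 ± 0.27). HECTD2, a ubiquitin ligase gene, rose by 1.06 and fell by 0.53 (−1.59 ± 0.22), and IGFBP3 rose by 0.55 and fell by 1.23 (−1.78 ± 0.30).

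The other 4 fell in shScr cells and rose in shIL1R cells. IL21R had a difference of 3.29 ± 0.48 and ITGA10 one of 2.25 ± 0.35. AK5, an adenylate kinase gene, stood at 2954 and 3013, then 1302 and 1159 in shScr cells and at 2447 and 1978, then 2571 and 3423 in shIL1R cells (1.71 ± 0.24), and its rise in shIL1R cells lay close to the threshold (limma adjusted p = 0.0492). CDH6, a cadherin, stood at 1346 and 1528, then 747 and 682 in shScr cells and at 1094 and 919, then 1326 and 1736 in shIL1R cells (1.60 ± 0.21).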

How the results depend on the processing

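All 336 called genes kept their sign in every alternative that tested them (326 were tested with a filter of 50), and none of the named genes reversed. In the fits that left out 1 library the sign of the 336 could not change, because their differences did not overlap between genotypes. The number called was 216 with no filter on low values (73 higher), 156 in a fit of the 8 libraries of day 0 and day 10 alone (41 higher, 115 lower), 802 with DESeq2 (351 higher, 451 lower) and 202 with a further 2-fold threshold (57 higher). That threshold left 3958 genes for the shScr change and 3450 for the shIL1R change. With edgeR 339 were called, 310 of them among the 336. Leaving out 1 library gave 42 to 2123 called genes, 11 to 984 higher and 31 to 1139 lower; the lowest were without shScr day 0 replicate 2 and the highest without shIL1R day 10 replicate 1. With such a library out its group has 1 sample, assumed to vary like the other groups; the cause of the other shifts was not tested. The calls of IL1A and IL1B were lost with no filter and with robust moderation. That of IL1A was also lost with edgeR and in the fit of the 8 libraries of day 0 and day 10 alone. Of 2189 values of the named genes under the alternatives, 307 in 43 genes no longer passed and 25 in 14 genes newly passed. The fit with a replicate block called 312 genes (290 of the 336), and 299 with a block within genotype (256 of the 336). Same-numbered libraries had correlations of deviations from −0.098 to 0.125 among the groups of day 0 and day 10, and from −0.102 to 0.231 with day 4 included, the highest between shIL1R groups; most were under 0.1, and the libraries share only a number. With 2 libraries a group and a median SE of 0.21, the smallest difference called was 0.46. This is not a limit of detection, because the SE varied between genes. Larger differences did not pass where the spread was wide, such as that of OAS1 (3.28 ± 1.76).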
